A study of Mus musculus with 4 samples.

Results

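Myostatin, the activins and the follistatins are 10 genes of the 24054 listed in the deposited table, matched by gene symbol: the ligands Mstn, Gdf11, Inhba and Inhbb, the secreted binding proteins Fst, Fstl3 and Fstl1, and the receptors Acvr2a, Acvr2b and Acvr1b. All 10 were found, and all 10 passed the filter on low counts. They were measured by RNA-seq in soleus muscle, a slow hindlimb muscle, of female mdx mice on the C57BL/10ScSn background, which lack functional dystrophin in every group. Dosing into the femoral vein began at 8 weeks of age and was repeated monthly to a 12-month endpoint, with passage 5 mouse cardiosphere-derived cells (mCDCs, labelled CDCs, stromal cells grown from 1 heart of a C57BL/10ScSn/J mouse, which is not dystrophic) in 2 samples and with IMDM culture medium alone (vehicle) in 2 samples. The labels do not say whether the 2 samples of a group came from separate mice, so p-values measure the spread between these samples, and neither wild-type nor untreated muscle was part of the table.

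Myostatin, the product of Mstn, is a secreted brake on skeletal muscle growth, and loss of its function gives enlarged muscles. Mstn, Gdf11 and the activins, dimers of the inhibin beta chains made from Inhba and Inhbb, are made as precursors that proteases cut, and they bind the type II receptors Acvr2a and Acvr2b, which then activate type I receptors such as Acvr1b. These phosphorylate Smad2 and Smad3, which move to the nucleus with Smad4. Follistatin (Fst) and follistatin-like 3 (Fstl3) wrap around the ligands outside the cell and keep them from their receptors. Fstl1 is a more distant relative that shares the follistatin domain and is not known as a strong activin antagonist.

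The expected counts, which estimate the reads from each gene and need not be whole, summed to between 22481391 and 27187425 per library. Soleus identity was carried by Myh7, the slow myosin heavy chain and the most abundant gene, and 4 lymphocyte markers summed to under 1 CPM in every library. CPM here are counts scaled to a common library size by the trimmed mean of M-values. The libraries differed within groups: 8 fast-fibre markers summed to 23360 and 19280 CPM in replicates 1 and 2 of mCDC and to 19590 and 24000 CPM in those of vehicle, while 5 endothelial markers summed to 118 and 94.8 CPM after mCDCs and to 100.1 and 212.5 CPM after vehicle. Calls required more than 1.5-fold change together with p below 0.05, unadjusted, in edgeR's quasi-likelihood test. No gene had an adjusted p under 0.05 with that test, where 947 of 13652 genes had an unadjusted p under 0.05, while DESeq2 gave 48 genes with an adjusted p under 0.05. With 2 libraries against 2, an exact permutation test cannot go below a two-sided p of 0.333.

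Per unit of transcript length, Fst and Fstl1 stood highest and the ligands lowest in these muscles, with the receptors and Fstl3 between them. On the scale of CPM per kilobase of the longest coding transcript, Fst averaged 12.2 over the 4 libraries (range 10.4 to 13.0) and Fstl1 averaged 9.42 (range 7.22 to 12.0), and their ranges overlapped. Acvr2a, Acvr1b and Fstl3 followed at means of 3.06, 2.62 and 2.44 CPM per kilobase, each with a range that overlapped that of the next, and Acvr2b stood apart below them at 0.956 (range 0.649 to 1.22). The ligands came last, with means of 0.380 CPM per kilobase for Gdf11, 0.285 for Inhbb, 0.231 for Mstn and 0.153 for Inhba, and neighbours in that order overlapped. The lowest library of Acvr2b, at 0.649, lay above the highest library of any ligand, at 0.555 for Gdf11. With the median in place of the longest coding transcript, Fst had a mean of 23.4 CPM per kilobase (range 19.8 to 24.8). It then no longer overlapped Fstl1, so their overlap depended on the length used. Inhba stood above Mstn and Acvr2b overlapped Fstl3 on that scale, so the order within the ligands was not resolved.

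**Figure D1:**
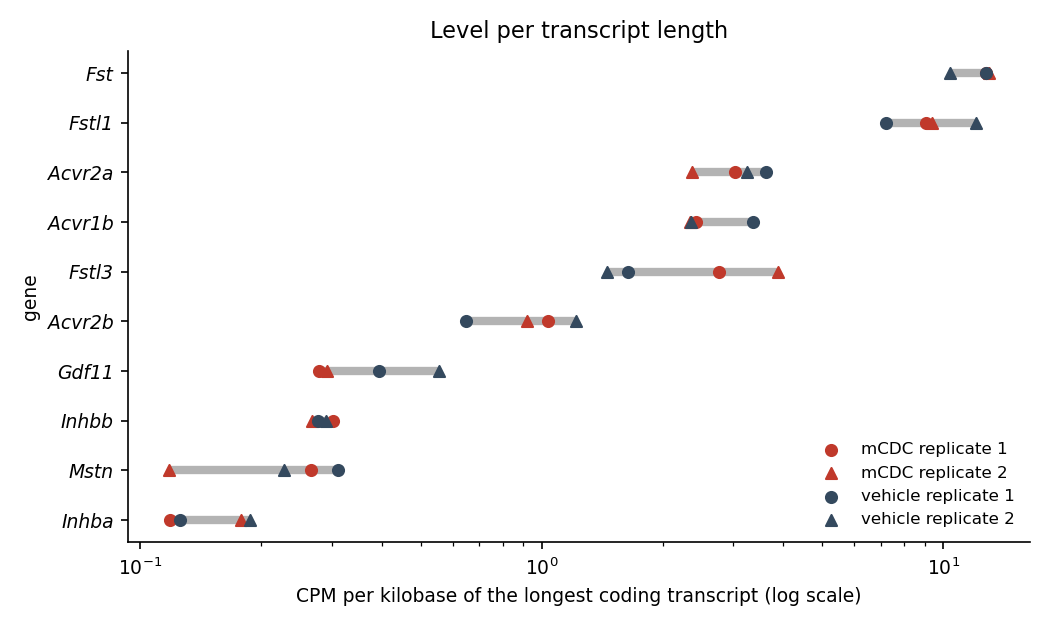
Level of each gene in CPM per kilobase of its longest coding transcript (log axis), ordered by the mean, with 1 point per library and a grey bar from the lowest to the highest library. The 4 ligands at the bottom lie at or under 0.555, and Fst and Fstl1 at the top lie at or over 7.22.

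Mstn itself was near the limit of detection. It lies at chr1:53061640-53068079 on the plus strand (GRCm38, GENCODE M21), and no 31-base word of its transcripts was found in another gene. It had 19 and 7 expected counts in replicates 1 and 2 of mCDC and 22 and 17 in those of vehicle, with exact 95% Poisson intervals of 11.4 to 29.7, 2.81 to 14.4, 13.8 to 33.3 and 9.9 to 27.2, which cover counting error only. In CPM these were 0.720 and 0.320 after mCDCs and 0.839 and 0.618 after vehicle. The groups overlapped, with mCDC replicate 2 the lowest library. The log2 fold change of mCDC over vehicle was -0.44 (standard error 0.52, 95% confidence interval -1.65 to 0.764, adjusted p = 0.855), so neither a fall of Mstn nor a rise over 1.5-fold was distinguishable at this depth. Leaving out mCDC replicate 2 took the log2 fold change of Mstn to -0.014 and leaving out mCDC replicate 1 took it to -1.17. Mstn is known to be transcribed most in fast glycolytic fibres. Myh4, the myosin of the fastest fibres, named here after its values were seen, was also lowest in mCDC replicate 2, with 2096 and 47.5 CPM after mCDCs and 163 and 411 CPM after vehicle. Of the 8 fast-fibre markers, 5 were lowest in that library (Myh4, Myh1, Actn3, Pvalb and Mybpc2) and 3 were not (Myh2, Tnnt3 and Tnni2). Myh2, the most abundant of them, had 6749 and 9617 CPM after mCDCs and 7617 and 10860 CPM after vehicle. All 8 were detected and none was called, and their part in the level of Mstn was not tested. In bulk muscle, fewer fibres of a type and less RNA per fibre cannot be told apart.

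Gdf11 (chr10:128882295-128891718, minus strand), the closest relative of Mstn, was lower in each mCDC library than in either vehicle library without being called. It had 30 and 26 counts after mCDCs and 42 and 62 after vehicle, or 1.14 and 1.19 CPM against 1.60 and 2.26 CPM. The log2 fold change was -0.73 (standard error 0.34, 95% confidence interval -1.52 to 0.052, adjusted p = 0.724). It met the threshold for a call, at -0.815, when libraries were scaled by their totals alone, and also at -0.952 without vehicle replicate 1. Vehicle replicate 2, the highest library of Gdf11, was also the highest in 6 fibro-adipogenic progenitor markers. They summed to 94.3 and 92.0 CPM after mCDCs and to 82.3 and 156 CPM after vehicle, so the groups overlapped. That library was also highest in the summed endothelial, tendon, Schwann, erythroid and fast-fibre markers. Of the 6 fibro-adipogenic markers, all detected, Lum and Pdgfra were called lower, with log2 fold changes of -1.02 and -0.74. The other 4 were not called and ran from -0.45 (Dpt) to -0.031 (Dpp4), with Pi16, the most abundant, at -0.16. The part of these markers in the level of Gdf11 was not tested.

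The activin chains did not separate the groups. Inhba, which encodes the subunit of activin A, had 0.757 and 1.14 CPM after mCDCs and 0.801 and 1.201 CPM after vehicle, from 20 to 33 counts. Each group held a lower and a higher library, and the log2 fold change of -0.10 had a 95% confidence interval of -1.07 to 0.876. Inhbb, which encodes the subunit of activin B, had 1.29 and 1.14 CPM after mCDCs and 1.18 and 1.24 CPM after vehicle, from 25 to 34 counts. Its log2 fold change was 0.010 (95% confidence interval -0.775 to 0.796). Both intervals reach past a 1.5-fold change on either side. The sign of each changed on leaving out a library, and that of Inhbb also under scaling by library totals or by upper quartile factors.

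**Figure D2:**
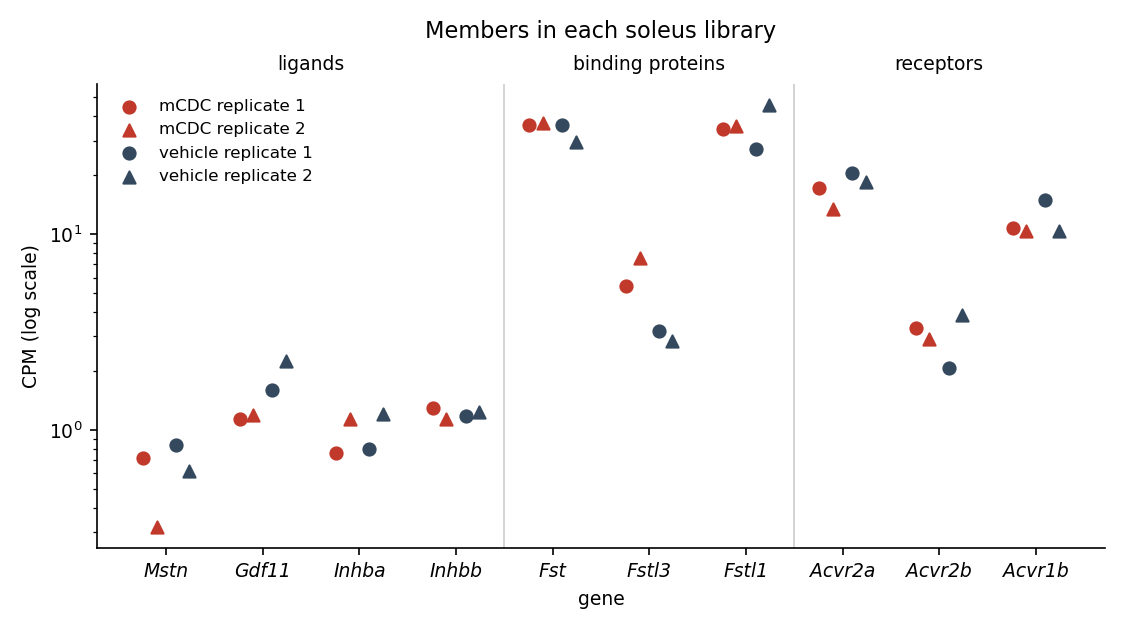
CPM of the 10 genes (log axis) in the 2 mCDC libraries (red) and the 2 vehicle libraries (blue), with circles for replicate 1 and triangles for replicate 2. Fstl3 is the gene whose mCDC libraries, at 5.42 and 7.58, lie farthest above its vehicle libraries, at 3.21 and 2.84.

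Among the binding proteins, Fstl3 was called higher in mCDC muscles. It had 143 and 166 expected counts in replicates 1 and 2 of mCDC and 84.0 and 78 in those of vehicle. In CPM it was 6.50 ± 1.53 (SD, n = 2) in mCDC muscles, from libraries at 5.42 and 7.58, and 3.02 ± 0.26 (SD, n = 2) in vehicle muscles, from libraries at 3.21 and 2.84. Both mCDC libraries lay above both vehicle libraries, and the difference between the groups was larger than the spread within either. The log2 fold change was 1.10 (standard error 0.26, 95% confidence interval 0.503 to 1.70, adjusted p = 0.567 with edgeR's quasi-likelihood test), which ranked 64 by p among 13652 genes. Over all 16 alternatives Fstl3 stayed called and between 0.843 and 1.33 on the log2 scale, with an adjusted p from 0.0528 with the likelihood ratio test to 1 without mCDC replicate 2. An adjusted p under 0.05 was not reached in any of them. Fstl3 was the 1 call among the 10 genes. Over all genes tested, 1.26% were called higher and 2.74% lower (172 and 374 genes, or 121 and 508 with libraries scaled by their totals), and 0 of the 10 were called lower.

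Fstl3 lies at chr10:79777272-79782630 on the plus strand (GRCm38, GENCODE M21), and exons of its annotated transcripts overlap those of Prss57 on the opposite strand. Of the 31-base words in Fstl3 transcripts, 46.7% also occur in transcripts of other genes, most often Prss57. The labels name a stranded library kit and the study's methods another kit, and no source used here states whether counting used the strand, so reads of the overlap could be placed on either gene. Prss57 had 4.22 and 0 expected counts after mCDCs and 4.03 and 0 after vehicle. Summed with Prss57, Fstl3 had a log2 fold change of 1.08, in an alternative added after the overlap was seen. Of 13 marker lists for other cells and fibre states, 3 had a summed CPM that was higher in each mCDC library than in either vehicle library, as Fstl3 had. The reverse held for 1 list. Of all genes tested, 38.7% separated the groups in either direction. The 4 satellite cell markers, all detected, summed to 53.8 and 50.4 CPM against 46.0 and 46.7 CPM, with 1 called in each direction, and the 4 mural cell markers, also all detected, to 203 and 237 CPM against 168 and 195 CPM, with 1 called in each direction. The 4 lymphocyte markers summed to 0.644 and 0.320 CPM against 0.229 and 0.255 CPM, with Cd3g at 0 in every library and none tested. In the reverse direction, the 5 regenerating fibre markers, all detected, summed to 574 and 578 CPM against 645 and 584 CPM, with 0 called. The part of these lists in the level of Fstl3 was not tested.

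The 250 bases before the RefSeq start of Fstl3 and of Mstn (GRCm38.p6) are shown for the called binding protein and for myostatin, a ligand it binds. They are upstream sequence and not the counted transcripts, except that the last bases of the Fstl3 window pass the GENCODE start. The capitals mark CAGAC, the short box that Smad3 and Smad4 can bind, on either strand. The Fstl3 window is chr10:79777024-79777273 and the Mstn window is chr1:53061390-53061639, both on the plus strand.
Fstl3: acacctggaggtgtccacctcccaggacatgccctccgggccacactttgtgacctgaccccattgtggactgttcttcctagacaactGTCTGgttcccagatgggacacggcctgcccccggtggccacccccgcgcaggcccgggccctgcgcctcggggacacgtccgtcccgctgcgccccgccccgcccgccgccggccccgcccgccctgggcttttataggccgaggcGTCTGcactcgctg
Mstn: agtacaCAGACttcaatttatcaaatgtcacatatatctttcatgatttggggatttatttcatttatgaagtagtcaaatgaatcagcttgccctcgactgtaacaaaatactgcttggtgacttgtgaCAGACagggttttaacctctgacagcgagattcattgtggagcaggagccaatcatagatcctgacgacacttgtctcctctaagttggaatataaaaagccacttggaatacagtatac
Each window holds the box at 2 places, starting 161 and 14 bases before the start for Fstl3 and 244 and 120 bases before it for Mstn. The box occurs in 42.2% of 32851 RefSeq promoter windows of this length. A further motif, the E-box CANNTG that myogenic factors bind, matched 3 times in Fstl3 and 4 times in Mstn, and 66.2% of all windows hold it. The promoter of Fstl3 is 71.2% G and C and that of Mstn 38.4%, where the median over all windows is 52.4%. Of the 10 genes, 9 were matched to a window, and 4 of these, Fstl3, Mstn, Acvr2a and Acvr2b, hold CAGAC. A match describes letters and not a bound site, and no binding was measured.

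Fst (chr13:114452290-114458951, minus strand), the most abundant of the 10 per unit length, differed by less than the threshold. It had 36.1 and 36.8 CPM after mCDCs and 36.1 and 29.4 CPM after vehicle, from 805 to 954 counts. The mCDC libraries were nominally above both vehicle libraries (36.13 against 36.10 CPM at the closest pair). The log2 fold change of 0.15 (standard error 0.16, 95% confidence interval -0.204 to 0.514, adjusted p = 0.828) excludes a 1.5-fold change in either direction within its 95% confidence interval, and it was 0.013 without vehicle replicate 2. Exons of Fst overlap an annotated antisense RNA, Gm47040, and 2.25% of the 31-base words of Fst occur in other genes, most often that one. Splice forms of Fst that differ in their carboxyl end are summed in these gene-level counts. Fstl1 had 34.3 and 35.5 CPM after mCDCs, between the 27.4 and 45.6 CPM of the vehicle libraries, and its log2 fold change of -0.06 (95% confidence interval -0.591 to 0.465) turned to 0.351 without vehicle replicate 2. That library was also highest in the fibro-adipogenic, endothelial and other marker sums named with Gdf11, whose part in the level of Fstl1 was not tested.

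**Figure D3:**
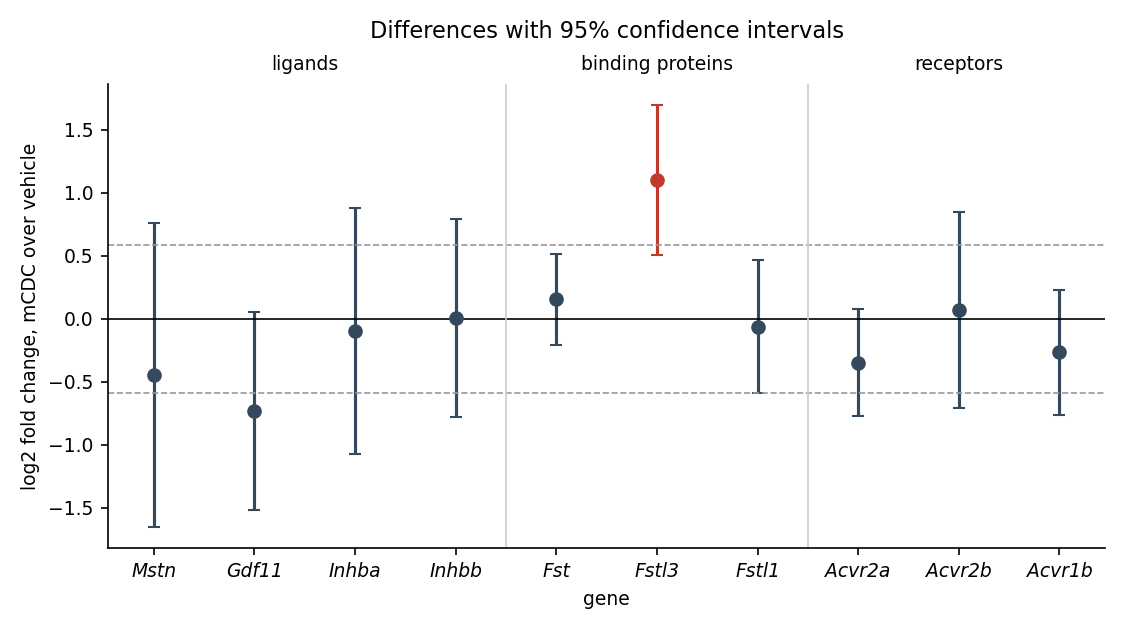
Log2 fold change of mCDC over vehicle for each gene with its 95% confidence interval from edgeR's quasi-likelihood test, where dashed lines mark 1.5-fold in either direction and red marks a call. The interval of Fstl3, from 0.503 to 1.70, is the 1 interval that does not cross 0.

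Of the receptors, none was called. Acvr2a (chr2:48814109-48903269, plus strand), a type II receptor for activins and myostatin, had 17.2 and 13.4 CPM after mCDCs and 20.5 and 18.4 CPM after vehicle. Both mCDC libraries lay below both vehicle libraries, and the log2 fold change was -0.35 (standard error 0.18, 95% confidence interval -0.768 to 0.076, adjusted p = 0.735). For Acvr2a this value was -0.536 without mCDC replicate 1, -0.18 without mCDC replicate 2 and -0.215 after removal of a trend with transcript length and GC. Its transcripts share 7.32% of their 31-base words with other genes, most often Orc4 on the opposite strand, which had 19.8 and 19.5 CPM against 17.9 and 16.6 CPM and was not called. Acvr2b, the type II receptor with the higher affinity for myostatin, had 3.30 and 2.92 CPM after mCDCs and 2.06 and 3.86 CPM after vehicle. The vehicle libraries enclosed the mCDC libraries, and the log2 fold change of 0.07 (95% confidence interval -0.704 to 0.845) ran from -0.304 to 0.593 on leaving out a library. Acvr1b, the type I receptor also called ALK4, had 10.7 and 10.3 CPM against 14.9 and 10.4 CPM. Vehicle replicate 1 alone stood above the other libraries, the log2 fold change was -0.26 (95% confidence interval -0.760 to 0.232), and without that library it was 0.020.

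Across the 10 genes, 4 separated the groups without overlap, Fstl3 and Fst with the mCDC libraries above and Gdf11 and Acvr2a with them below, where 38.7% of all genes tested did so in either direction. The median log2 fold change of the 10 was -0.08, beside -0.0094 over all genes tested. With each library left out in turn, Fstl3, Fst, Gdf11, Acvr2a and Mstn kept their direction, and Inhba, Inhbb, Fstl1, Acvr2b and Acvr1b did not.

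**Figure D4:**
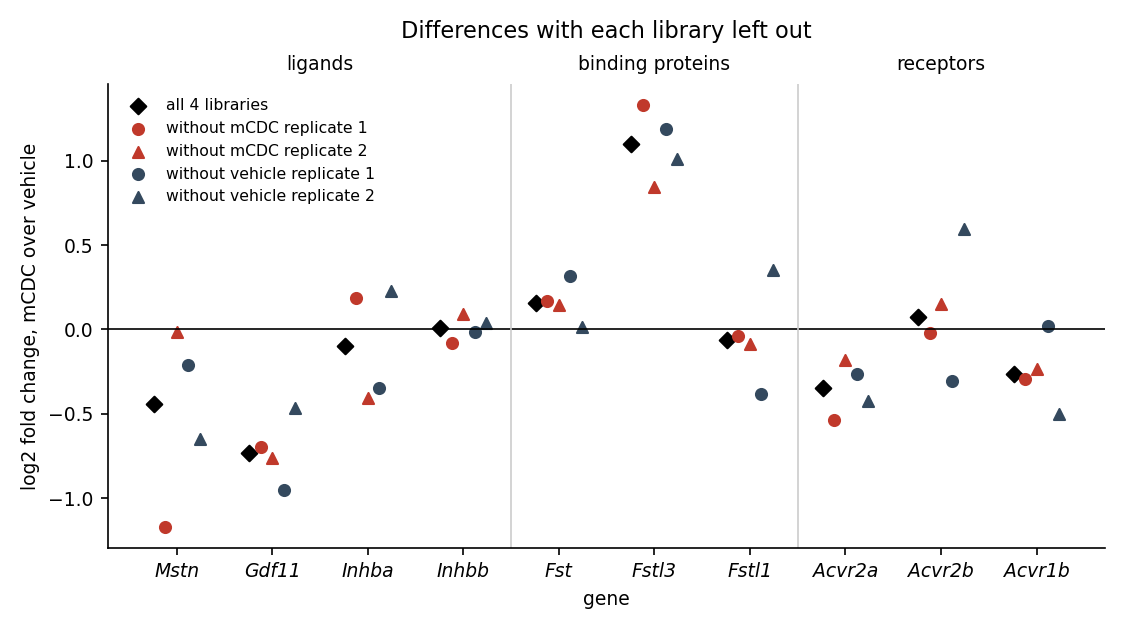
Log2 fold change of mCDC over vehicle for each gene with all 4 libraries (black diamonds) and with each library left out (red and blue symbols). Fstl3 lies between 0.843 and 1.33 in the reduced fits, while Acvr2b runs from -0.304 to 0.593.

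Ratios between genes within a library do not depend on scaling between libraries, and 0.5 was added to each expected count before the log2 ratio was taken, which matters most for the library with 7 Mstn counts. The log2 ratio of Fstl3 over Mstn, on counts with 0.5 added, was 2.88 and 4.47 after mCDCs and 1.91 and 2.17 after vehicle, a difference of 1.64 in the means without overlap (exact permutation test, two-sided, p = 0.333, the smallest the design allows). Leaving out mCDC replicate 2 took that difference to 0.84, and leaving out mCDC replicate 1 took it to 2.44. The log2 ratio of Fst over Mstn was 5.61 and 6.75 against 5.39 and 5.53, a difference of 0.718 (exact permutation test, two-sided, p = 0.333), which fell to 0.151 without mCDC replicate 2. The log2 ratio of Mstn over Gdf11 differed by 0.144, that of Fst over Inhba by 0.235 and that of Acvr2b over Acvr2a by 0.495, each with overlapping groups (exact permutation test, two-sided, p = 0.667 for each) and each with a sign that changed on leaving out a library. With 5 ratios compared, none could pass an adjustment for their number. Summed per kilobase, Fst and Fstl3 together stood 16.1 and 19.7 times above the 4 ligands after mCDCs and 13.0 and 9.37 times above them after vehicle (exact permutation test, two-sided, p = 0.333), a ratio chosen after the values were seen. With median coding lengths the same ratio was 25.8 and 29.5 against 21.7 and 15.3. These are ratios of transcripts and not of proteins.

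The 3 genes with a mean of at least 10 CPM whose centred log2 CPM over the 4 libraries lay closest to that of Mstn, among 7685 candidates, were Tbc1d4, Ogn and Gpt2. Their root mean square distances from Mstn were 0.0869, 0.0972 and 0.0990. Among the same candidates, 217 genes had a Pearson correlation over 0.95 with Mstn, so the 3 named genes are not distinctive. All values share the same 4 libraries and the pattern of Mstn rests on 7 to 22 counts per library, so the distances are a description.

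Other genes of the pathway were read from the same fit. Of 56 listed, 51 were tested, 2 were called higher and 3 lower (1.26% and 2.74% over all genes tested), and 24 had a log2 fold change above 0, with a median of -0.06. Over all genes tested, 6609 of 13652 had a log2 fold change above 0. None of the 5 proteases of the ligand precursors that could be tested was called. Furin, which cuts the precursors, had 60.4 and 60.2 CPM after mCDCs and 54.6 and 46.0 CPM after vehicle (log2 fold change 0.26, adjusted p = 0.739). Bmp1, of the tolloid proteases that release latent ligand, had 19.2 and 18.5 CPM between vehicle values of 15.8 and 31.4 CPM (log2 fold change -0.32, adjusted p = 0.813). The log2 fold change of Bmp1 turned to 0.254 without vehicle replicate 2, and it met the threshold for a call, at -0.73, without vehicle replicate 1.

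Of 6 other binding proteins and antagonists tested, Tgfbr3 was called lower. Tgfbr3 is betaglycan, a coreceptor that presents TGF-beta and lets inhibin block activin receptors. It had 14.4 and 13.2 CPM after mCDCs and 23.5 and 20.8 CPM after vehicle, without overlap (log2 fold change -0.68, standard error 0.16, adjusted p = 0.567), and ran from -0.77 to -0.586 with each library left out. Wfikkn2, an antagonist of myostatin and Gdf11, had 12.1 and 9.50 CPM against 14.1 and 11.5 CPM and was not called (log2 fold change -0.25). Of the 2 other type I receptors, neither was called, and Tgfbr1, which myostatin can also use, had 13.3 and 11.2 CPM against 14.9 and 14.2 CPM (log2 fold change -0.25, adjusted p = 0.776).

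Of 11 Smad2 and Smad3 pathway genes and brakes, all tested, Pmepa1 was called higher. Pmepa1 encodes a membrane protein that binds these Smads and dampens their signal, and it is itself induced by TGF-beta. It had 52.9 and 87.2 CPM after mCDCs and 43.2 and 40.1 CPM after vehicle (log2 fold change 0.75, standard error 0.22, adjusted p = 0.635), and it was no longer called without mCDC replicate 2, at 0.346, or without vehicle replicate 2, at 0.695, while its adjusted p ran from 0.0191 without mCDC replicate 1 to 1 without mCDC replicate 2. Smad2 and Smad3 had log2 fold changes of 0.11 and 0.10, with levels of 16.0 and 16.7 against 16.8 and 13.5 CPM for Smad2 and of 58.6 and 48.3 against 56.4 and 43.8 CPM for Smad3. The inhibitory Smad7 had 14.0 and 16.4 CPM against 15.5 and 9.60 CPM (log2 fold change 0.28). The groups overlapped for all 3 of these Smads, and each changed sign without vehicle replicate 2, while Smad7 was called higher, at 0.668, without vehicle replicate 1.

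Among 10 growth and atrophy effectors, all tested, Cdkn1a was called higher and Foxo3 and Fbxo32 were called lower. Cdkn1a encodes the cell cycle inhibitor p21 and had 75.4 and 97.8 CPM after mCDCs and 40.8 and 52.1 CPM after vehicle (log2 fold change 0.90, standard error 0.18, adjusted p = 0.462). Over its alternatives the adjusted p of Cdkn1a ran from 0.00993 with DESeq2 to 0.774 with no filter on low counts, and it was also under 0.05 with edgeR's likelihood ratio test (adjusted p = 0.013), with its exact test (adjusted p = 0.0133) and without mCDC replicate 1 (adjusted p = 0.0245). Fbxo32 encodes atrogin-1, a ubiquitin ligase of muscle wasting, and had 271 and 211 CPM against 426 and 340 CPM (log2 fold change -0.67, standard error 0.18, adjusted p = 0.612). It stayed lower but under the 1.5-fold threshold on removing a trend with transcript length and GC, at -0.517, without mCDC replicate 2, at -0.497, and without vehicle replicate 1, at -0.49. Foxo3, a transcription factor that drives Fbxo32, had 3.94 and 3.34 CPM against 11.5 and 4.51 CPM (log2 fold change -1.13, standard error 0.41, adjusted p = 0.695). Its difference rested largely on vehicle replicate 1, without which it was -0.304. Trim63, another of the 10 effectors, went the other way and was not called (log2 fold change 0.17). It had 155 and 157 CPM after mCDCs and 151 and 125 CPM after vehicle, without overlap. Of the 10 effectors, 5 had a log2 fold change above 0, with a median of 0.019. Of 17 genes of the BMP branch tested, which signals through other Smads and shares the type II receptors, none was called, with a median of -0.06. Where no other test, filter or left-out library is named, adjusted p-values are from edgeR's quasi-likelihood test over all 13652 genes.

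**Figure D5:**
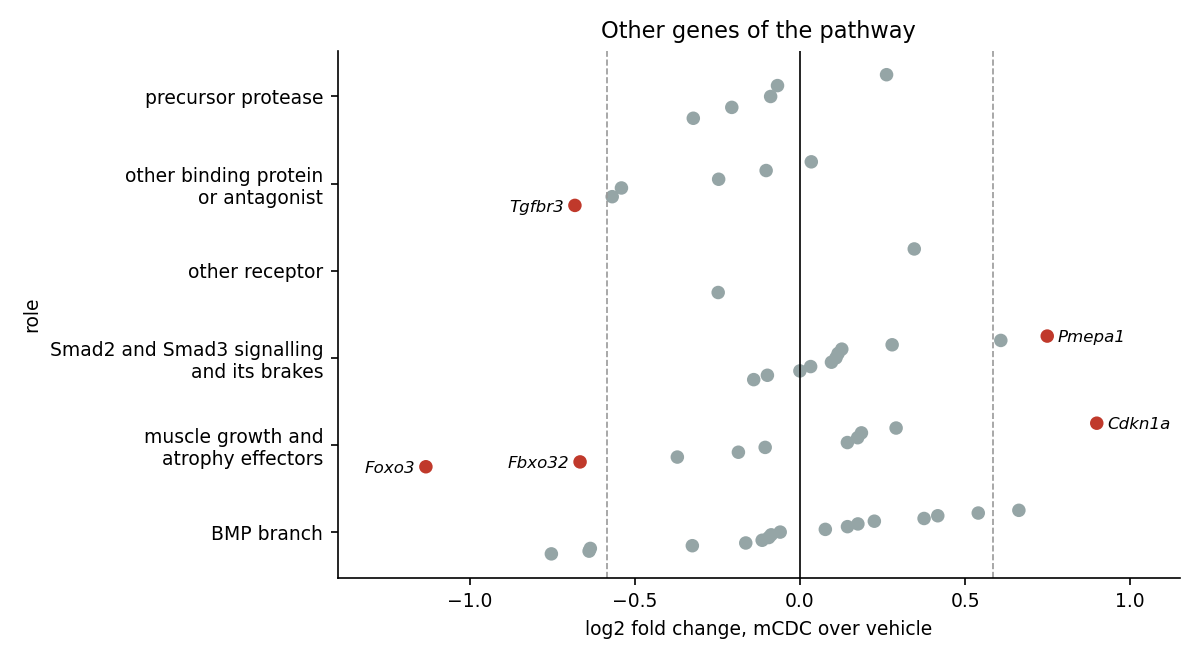
Log2 fold change of mCDC over vehicle for the 51 tested genes of the pathway outside the 10 described, by role, with called genes in red and dashed lines at 1.5-fold. The 5 red points are Tgfbr3, Foxo3 and Fbxo32 below 0 and Pmepa1 and Cdkn1a above it.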

How the data were processed

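Total RNA was purified from the soleus, per the study's methods, and its libraries were sequenced (single-end). The labels name a stranded mRNA library kit and the study's methods another kit. The authors aligned reads to UCSC transcripts using Bowtie2 (version 2.1.0, build mm10, per the labels) and estimated with RSEM (version 1.2.15, per the labels) the deposited expected counts per gene symbol, without normalization. Library totals ran from 22481391 to 27187425. Of 24054 symbols, 5893 had no count. Groups and replicate numbers were taken from the sample titles. The members and gene lists were chosen with earlier results of these data known.

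Counts were rounded, filtered with filterByExpr, scaled by trimmed mean of M-values and tested with edgeR 4.0.16 (quasi-likelihood F-test, legacy = FALSE) in R 4.3.3, with Benjamini-Hochberg adjustment over 13652 genes. Standard errors were derived from F and the log2 fold change. Calling thresholds followed the study's methods. The procedure was tested on simulated data. Alternatives were DESeq2 1.42.0, other edgeR tests, scalings and filters, a length and GC trend, the replicate number as a block and each library left out. Coordinates, lengths and 31-base words came from GENCODE M21 (GRCm38, the same assembly as mm10) and promoters from RefSeq. Named were all members, called pathway genes, and Tgfbr1, Smad2, Smad3, Smad7, Furin, Bmp1, Wfikkn2 and Fbxo32 whether called or not. Genes whose exons overlap a member, the 3 genes closest to Mstn in pattern and the most abundant gene of a marker list were also named. Trim63 and other markers were named after their values were seen.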

Additional observations from a re-analysis of the deposited data

How the results depend on the processing

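Fstl3 kept its call under every alternative run, and 1 of the 10 genes was called higher in each. The log2 fold changes of Gdf11, Fst, Acvr2a and Mstn kept their sign in all that were run for them, where Mstn had no value with at least 10 counts required in every library. Scaling by library totals called 1 of the 10 genes lower (Gdf11, at -0.815), moved the share of calls that were higher from 31.5% to 19.2%, and turned Inhbb to -0.0695 and Acvr2b to -0.0134; upper quartile factors turned Inhbb to -0.0213. Genes with an adjusted p under 0.05 numbered 48 with DESeq2, 66 with the likelihood ratio test and 58 with the exact test, against 0 with the quasi-likelihood test. The median of the pathway list was 0.0055 with DESeq2 and 0.00975 with the length and GC trend removed, which turned Smad3 to -0.00886. The cause of each change was not tested.

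With each library left out, genes called higher ran from 112 (without mCDC replicate 2) to 397 (without mCDC replicate 1), genes called lower from 236 (without mCDC replicate 2) to 834 (without vehicle replicate 1), genes with an adjusted p under 0.05 from 0 to 91 (without mCDC replicate 1), members called lower from 0 to 1 and pathway genes called higher from 1 (without mCDC replicate 2) to 6 (without vehicle replicate 1). Log2 fold changes ran from -0.404 to 0.227 for Inhba, -0.0823 to 0.09 for Inhbb, -0.38 to 0.351 for Fstl1, -0.304 to 0.593 for Acvr2b, -0.501 to 0.0202 for Acvr1b, -0.952 to -0.465 for Gdf11, -0.0431 to 0.28 for Smad2, -0.0767 to 0.292 for Smad3, -0.027 to 0.668 for Smad7 and -0.73 to 0.254 for Bmp1. The members' median ran from -0.236 to 0.0268 and the pathway median from -0.0428 to 0.0944. Differences in log2 ratio ran from -0.444 to 0.732 for Mstn over Gdf11, -0.199 to 0.668 for Fst over Inhba and -0.0311 to 1.02 for Acvr2b over Acvr2a. A left-out fit assumes that the lone library of a group varies like the others.

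Deviations of same-numbered libraries from their group means correlated at -0.0388 over the genes tested. This is a single value from a single pairing, so it cannot show whether same-numbered libraries share a batch. With the replicate block, 172 genes were called higher and 308 lower, and Fstl3 was at 1.09. No call among the 10 genes or the other named pathway genes changed, while Trim63 and other named markers were not recomputed. Counts of 7 to 62 per library limit the 4 ligands, whose 95% intervals of the log2 fold change were over 1.5 wide.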
